A study of Mus musculus with 3 samples.

Results

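Oxidative phosphorylation is the process by which the inner mitochondrial membrane turns the oxidation of nutrients into ATP. Complexes I (NADH dehydrogenase) and II (succinate dehydrogenase) pass electrons to ubiquinone, complex III hands them to cytochrome c, complex IV (cytochrome c oxidase) gives them to oxygen, and complex V (ATP synthase) uses the resulting proton gradient. Most subunits are encoded in the nucleus, and a few positions, chiefly in complex IV, are filled by different isoforms in different tissues. The genes described here were those whose symbol in the platform annotation begins with Nduf followed by a, b, c, s or v, with Uqcr, with Cox and a digit from 4 to 8, or with Atp5, together with the Sdh genes of complex II. They were 90 of the 18193 genes with a probe set of a single gene symbol, and they were measured by 179 of 34945 such probe sets. The pattern took 82 subunit genes and 8 Ndufaf genes, which encode assembly factors of complex I and are counted apart. Isoform sets, partner genes and markers were drawn from textbook knowledge.

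The samples were cap mesenchyme, the progenitor cells that surround the ureteric tips and form nephrons, from kidneys of E15.5 CD-1 embryos (Theiler stage 23). The embryos carried Tg(Six2-EGFP/cre)1Amc, a transgene that reports Six2 with EGFP and cre, and cells were sorted by fluorescence, so any cell with transgene fluorescence could enter the sort. There was 1 group of 3 arrays, called pools 1, 2 and 3 here because every sample combined roughly 5 to 10 kidneys. No second cell population was measured, so the comparison is of each transcript with the background of its array. The labels do not say whether the pools came from separate litters, so p-values measure the spread between these pools, which may be technical.

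All 10 cap mesenchyme markers, Six2, Eya1 and Sall1 among them, were above background. Of markers of other cells, 0 of 7 erythroid, 0 of 7 macrophage, 0 of 6 endothelial and 0 of 7 proximal tubule genes passed limma's test, also with 0 at an unadjusted p under 0.05, against 2 of 6 ureteric bud and 4 of 5 stromal genes. The summed signal of the stromal list was 27300, 20477 and 22019 in pools 1, 2 and 3, and the part of such cells in the signals below was not tested. The log2 ratio of 3′ to 5′ control probe sets was 1.82, 3.28 and 3.18 for beta-actin and 4.36, 5.05 and 4.08 for Gapdh in pools 1, 2 and 3. Signals are linear array intensities that the authors scaled to the same mean on each array. With 3 arrays, the precision of each value is limited.

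Transcripts of nearly the whole respiratory chain were above background in the sorted progenitors. Of the 90 genes, 81 passed the test (90%), against 54.4% of all named genes, and 150 of their 179 probe sets passed, against 41.5% of all probe sets. The test was limma's one-sided test of log2(signal + 16) against the background level of the same array, with Benjamini-Hochberg adjustment over all 45037 probe sets and a threshold of 0.05. The background level was the 95th percentile of 150 probe sets for sensory receptor, hair and defensin genes and lay at a signal of 197, 186 and 201 in pools 1, 2 and 3. A gene passed if any of its probe sets did, and its brightest probe set gives the values below. The median distance from the background level was 5.74 log2 units over the 90 genes, against 1.20 over all named genes. Among genes above background it was 5.87, against 3.65. These distances carry the affinity of each probe set and do not rank transcripts by abundance. In bulk arrays, fewer cells that express a gene and less RNA per cell cannot be told apart.

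All 4 complex II genes, all 8 of complex III, all 17 of ATP synthase and all 8 assembly factors passed, as did 33 of 36 complex I genes and 11 of 17 complex IV genes. The 9 genes that did not pass were Cox4i2, Cox6a2, Cox6b2, Cox7a1, Cox7b2 and Cox8b of complex IV and Ndufa4l2, Ndufb1 and Ndufb4 of complex I. Each was measured by 1 probe set, apart from Cox6a2, which had 2, so most of these results rest on a single probe set. Among genes above background the lowest distance from the background level was 1.45 log2 units, for the assembly factor gene Ndufaf3. Among those that did not pass, the highest was 0.37, for Ndufb1.

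**Figure D1:**
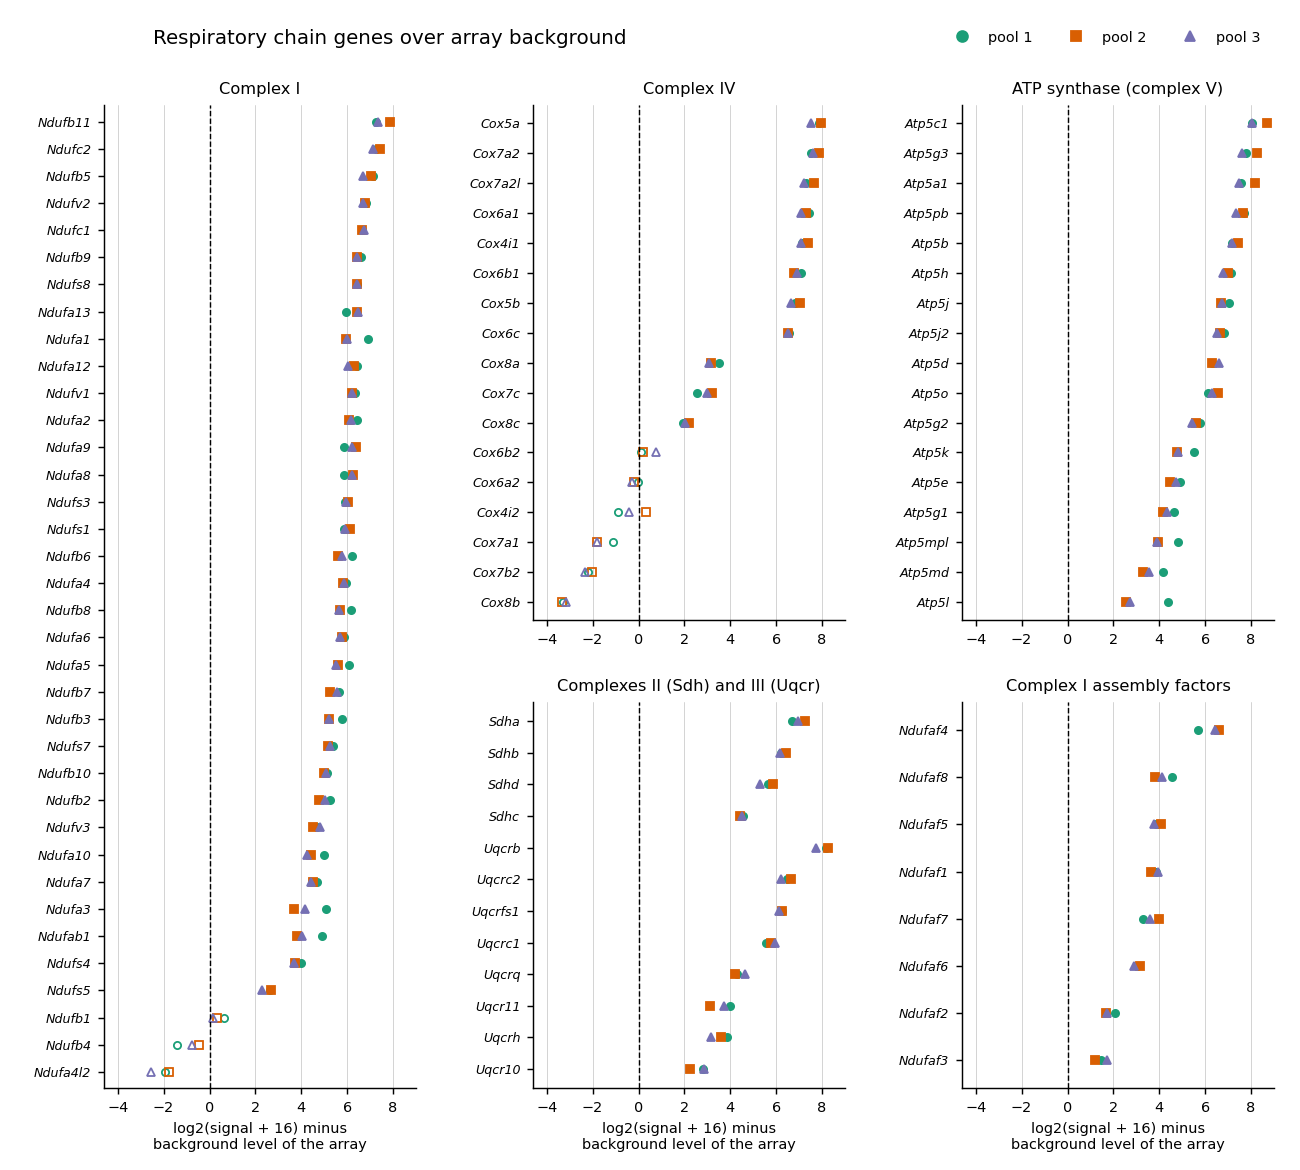
Each row is a gene, and the horizontal axis gives log2(signal + 16) minus the background level of the same array for pools 1 (circles), 2 (squares) and 3 (triangles), with the background level as a dashed line. Filled symbols mark the 81 genes above background and open symbols the 9 that were not, 6 of them in complex IV.

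The genes of complex IV divided by isoform. Cox4i1, the widely expressed form of the subunit that helps set the enzyme's response to ATP, had signals of 29803, 33688 and 29212 in pools 1, 2 and 3. Its paralog Cox4i2, known from lung and from responses to low oxygen, had 97.3, 239 and 146, on both sides of the background level. The pools of Cox4i1 were thus far above the background level, and only pool 2 of Cox4i2 exceeded it (adjusted p = 1 in limma).

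Cox6a1, the form of subunit VIa found in most tissues, had signals of 36858, 31826 and 29416. The heart and skeletal muscle form Cox6a2 had 191, 160.2 and 160.3, and its other probe set had 27.1, 15.8 and 21.9. Every pool of Cox6a2 lay below the background level of its array on both probe sets. Cox7a2, the wide form of subunit VIIa, had signals of 38677, 47654 and 41780.2. The heart and skeletal muscle form Cox7a1 had 83.5, 42.2 and 46.8, below the background level in every pool. Cox7a2l, a relative of Cox7a2 that takes part in supercomplexes of the chain, had 33220, 40360 and 31938, with all 3 of its probe sets above background.

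Subunit VIII was represented by a wide and a testis form. Cox8a, the wide form, had signals of 2417, 1771 and 1819 on its brightest probe set. Cox8b, the form of heart, skeletal muscle and brown fat, had 5.98, 4.23 and 8.54, below the background level in every pool. Cox8c, described from testis, had 809.5, 898 and 855 (mean 854 ± 44.3, SD, n = 3), which was 2.05 ± 0.15 log2 units (SE) over the background level (adjusted p = 7.2e-06 in limma). Its pools lay close together and all exceeded the background level. A further Cox8c probe set did not pass, with 105, 503 and 262 (adjusted p = 0.534 in limma), so the call rests on 1 of 2 probe sets. The other testis form, Cox6b2, had 210.1, 218 and 354 and did not pass (adjusted p = 0.265 in limma), whereas the wide form Cox6b1 had 28572, 21937 and 26148. All 3 pools of Cox6b2 read over the background level, pools 1 and 2 only slightly.

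Cox7b2, a paralog of the Cox7b gene, had signals of 30.6, 32.8 and 26.6, far below the background level. Ndufa4, which carries a complex I name but encodes a protein found in complex IV, had 12998, 11245 and 12501 and is counted under complex I by its name. Its paralog Ndufa4l2, induced by low oxygen in other cells, had 39.7, 42.5 and 20.7, below the background level in all pools. Together, 1 of the 8 tissue or inducible isoforms passed, against all 6 wide forms and 54.4% of all named genes. By probe set, 1 of 10 passed for the tissue or inducible isoforms and 10 of 11 for the wide forms. Most of the tissue or inducible isoforms had only 1 probe set. The wide forms pair with 7 of the 8, as Cox7b, the counterpart of Cox7b2, is not analysed here. Levels were set against background only, because the probe sets of a pair can differ in affinity.

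**Figure D2:**
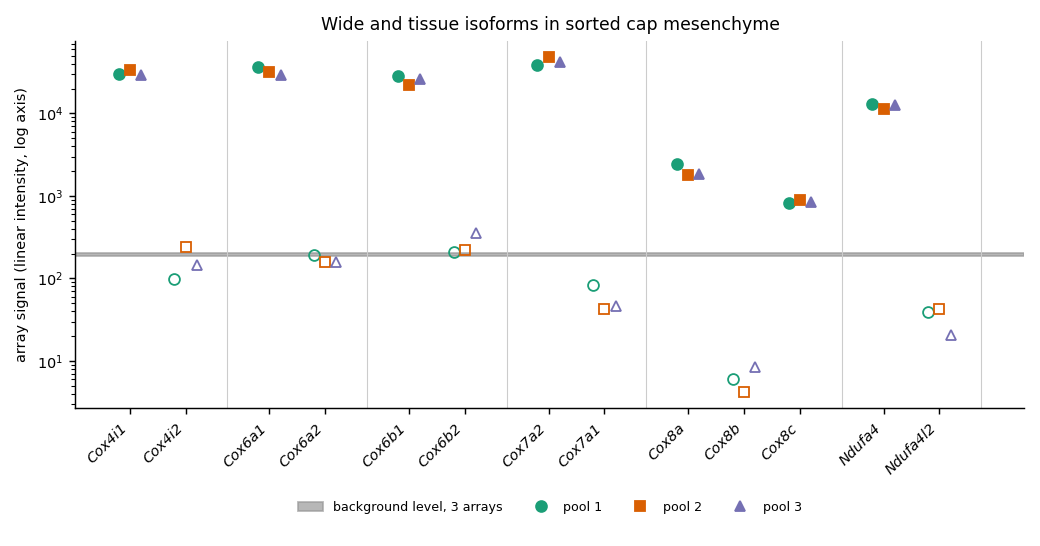
The vertical axis gives the array signal on a log axis for each wide isoform and its paralogs, with 1 symbol per pool, filled where the gene was above background, and the grey band shows the background level of the 3 arrays. The wide forms lie above the band in every pool, and of their paralogs only Cox8c does so as a call.

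Most markers of muscle, brown fat and testis germ cells were not above background. Markers of lung or of low oxygen were not examined. Of 12 skeletal and heart muscle genes, 1 passed, the intermediate filament gene Des (811, 914 and 1152 in pools 1, 2 and 3), and the summed signal of the list ranged from 1838 to 2699 over the pools. None of 4 brown fat genes passed (0 also at an unadjusted p under 0.05 in limma), with a sum between 325 and 459. None of 6 testis germ cell genes passed (0 at an unadjusted p under 0.05 in limma), with a sum between 316 and 466, so Cox8c was above background in libraries where these germ cell markers were not.

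The promoters of these genes were examined for motifs of factors known to control respiratory genes, since the call separated isoforms of the same subunit. RefSeq windows (GRCm38.p6) of 250 bases before to 50 after the annotated start were found for 74 of the 90 genes, 68 above background and 6 not. The motifs were NRF1 (the core CGCATGCG), GABP and other ETS factors (CCGGAAG), YY1 (AAGATGGC), oestrogen-related receptors (TGACCTTG), the TATA box (TATAAA), the CCAAT box (CCAAT) and the GC box (GGGCGG), on either strand and with overlaps between motifs allowed. The windows below show an isoform with NRF1 and ETS matches (Cox6a1), a small ATP synthase subunit with both (Atp5k), a complex I subunit with a YY1 match (Ndufc1), and a pair of muscle isoforms that were not above background (Cox7a1 and Cox8b). They run from 200 bases before to 30 after the start, 5′ to 3′, at chr5:115348929-115349158 (minus strand), chr5:108434370-108434599 (minus), chr3:51408926-51409155 (minus), chr7:30183971-30184200 (plus) and chr7:140900417-140900646 (minus) in that order. Capitals mark matches to the NRF1, ETS, YY1 or TATA motif on either strand.
Cox6a1: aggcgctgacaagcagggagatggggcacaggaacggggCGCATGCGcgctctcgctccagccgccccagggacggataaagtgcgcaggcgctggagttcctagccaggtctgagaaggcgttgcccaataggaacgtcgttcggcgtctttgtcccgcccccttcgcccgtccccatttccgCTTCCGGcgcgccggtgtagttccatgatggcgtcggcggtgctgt
Atp5k: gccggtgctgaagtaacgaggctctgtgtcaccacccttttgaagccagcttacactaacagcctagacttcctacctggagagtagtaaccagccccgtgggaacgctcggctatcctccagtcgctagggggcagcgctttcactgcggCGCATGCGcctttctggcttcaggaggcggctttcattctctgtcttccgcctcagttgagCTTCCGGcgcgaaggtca
Ndufc1: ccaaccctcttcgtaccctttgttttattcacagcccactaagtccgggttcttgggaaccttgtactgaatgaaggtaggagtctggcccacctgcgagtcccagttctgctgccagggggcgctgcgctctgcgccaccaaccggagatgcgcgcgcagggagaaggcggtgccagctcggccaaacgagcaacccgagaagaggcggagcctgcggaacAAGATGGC
Cox7a1: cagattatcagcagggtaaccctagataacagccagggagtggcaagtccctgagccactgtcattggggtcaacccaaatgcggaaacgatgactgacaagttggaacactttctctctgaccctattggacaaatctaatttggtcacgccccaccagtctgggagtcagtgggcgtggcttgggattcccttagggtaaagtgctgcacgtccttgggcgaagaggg
Cox8b: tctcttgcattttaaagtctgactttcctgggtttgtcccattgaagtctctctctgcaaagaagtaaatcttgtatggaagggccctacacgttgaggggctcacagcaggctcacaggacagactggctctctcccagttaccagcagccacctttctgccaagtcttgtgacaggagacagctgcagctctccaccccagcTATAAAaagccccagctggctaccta

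NRF1 and GABP are transcription factors of nuclear respiratory genes, and YY1 also binds many promoters of this kind. The NRF1 motif was in the windows of 10 of 74 genes (13.5%), against 3.28% of the 14369 array genes with a window. In 6 of them (8.11%, against 1.75%), namely Uqcrc1, Cox6a1, Atp5g2, Atp5k, Ndufaf4 and Ndufaf5, it also had the flanking G and C of the longer consensus. The ETS motif was in 19 (25.7%, against 15.0%), including Sdhb, Sdhd, Cox6b1 and Cox8a. The YY1 motif was in 10 (13.5%, against 4.09%), including Ndufa9, Ndufs4, Ndufs7 and Atp5pb. Of its 10 matches, 8 began at or after the annotated start and 9 read on the strand of the gene, and 19 of the 22 ETS matches began within 70 bases of the start. Positions and strands were not counted for the other array genes, so they are not shown to be particular to these genes.

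At least 1 of these 3 motifs was in 32 of 74 windows (43.2%), against 20.6% of array genes. Here and above, the array genes include genes that were not above background, whereas 68 of the 74 windows belong to genes above background. The share among array genes above background was not computed. The 32 were among the 68 windows of genes above background. Of the 6 windows of genes not above background (Cox6b2, Cox7a1, Cox7b2, Cox8b, Ndufb1 and Ndufb4), 0 held any of the 3 motifs. With only 6 windows, a count of 0 does not set these genes apart from the array genes, at 20.6%. For each of these 6 genes the status rests on 1 probe set, and the probe sets that Ndufb4 shares with Ndufb4b and Ndufb4c were above background. The oestrogen-related receptor motif was in 4 windows (5.41%, against 1.59%), the TATA box in 8 (10.8%, against 11.5%), the CCAAT box in 32 (43.2%, against 42.0%) and the GC box in 35 (47.3%, against 57.5%). The TATA box was in 2 of the 6 windows of genes not above background, Cox7b2 and Cox8b. The Cox7b2 match began at position -221 from the annotated start, on the opposite strand. That of Cox8b began at position 4, after the start. A match describes letters in the window and shows no binding.

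**Figure D3:**
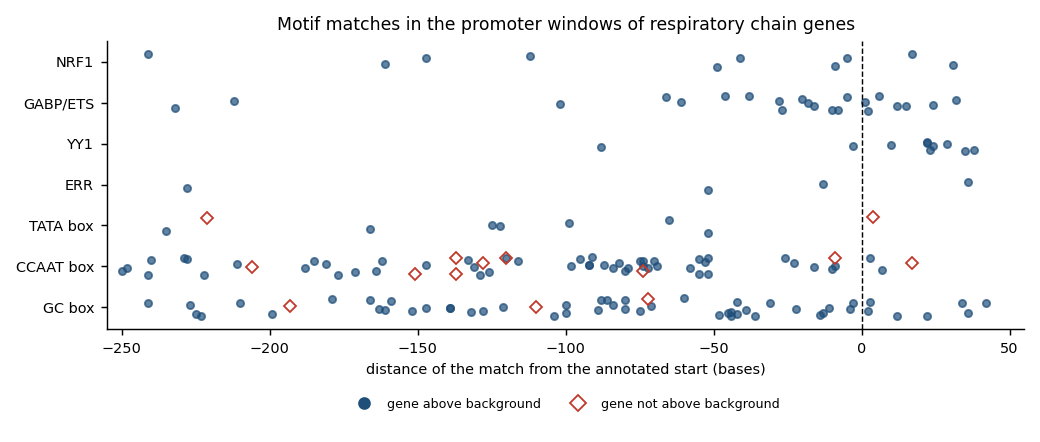
The horizontal axis gives the distance of each motif match from the annotated start (dashed line) in the windows of 74 genes, with 1 row per motif, filled circles for genes above background and open diamonds for genes that were not. ETS and YY1 matches gather near the start, and the diamonds lie in the rows of the TATA, CCAAT and GC boxes. Positions in the other array genes were not counted.

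The factors themselves were largely above background. Of 17 regulators of mitochondrial genes, 15 passed, against 54.4% of all named genes. Among these regulators were Yy1 (20996 ± 2093), Gabpa, the DNA-binding subunit of GABP (10634 ± 607), and Tfam, which packages mitochondrial DNA (10005 ± 1442, SD, n = 3 each). Nrf1 had signals of 2098, 3265 and 2896 in pools 1, 2 and 3. The coactivator gene Ppargc1a did not pass on any of its 5 probe sets, with 133, 178 and 263 on the brightest (adjusted p = 1 in limma), whereas its relatives Ppargc1b (689, 385 and 499) and Pprc1 (5236, 5812 and 6301) did. The receptor gene Esrrg did not pass either (230.2, 165 and 189), and Esrra did (531, 519.6 and 666).

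Complex I takes electrons from NADH through a core of subunits that bind flavin and iron-sulfur clusters, surrounded by many accessory subunits. All 6 measured nuclear core genes were above background on every probe set. Ndufv1, which binds NADH and flavin, had signals of 17285, 14807 and 16160.0 in pools 1, 2 and 3, and Ndufs3 had 12765, 13156 and 13316. The pools of Ndufs3 differed least of all 90 genes, with a coefficient of variation of 2.17%. The iron-sulfur subunit genes Ndufs1 (13051 ± 917), Ndufs7 (8078 ± 821), Ndufs8 (18050 ± 700) and Ndufv2 (22942 ± 1217, SD, n = 3 each) had coefficients of variation from 3.88% to 10.2%.

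Of the other 30 complex I genes, 27 passed. Ndufab1, the mitochondrial acyl carrier protein, had signals of 6394, 2817 and 3557, and pool 1 was more than 2-fold above pool 2. Other Ndufab1 probe sets above background ordered the pools differently, with 945, 1275 and 763 on 1 of them and 247, 698 and 656 on another, where pool 1 was lowest. Ndufa13 had 13274, 17424 and 19047, with pool 1 lowest and pool 3 highest. Ndufb11 had 32288, 46658 and 35172, with pool 2 highest. Its dimmest probe set, also above background, had 7634, 7785 and 9285, with pool 3 highest. Ndufb1 did not pass, with 314, 236 and 225 (adjusted p = 0.230 in limma), although all 3 pools read above the background level. Ndufb4 did not pass on its single-gene probe set, with 63.3, 129 and 112. A pair of further probe sets carry the Ndufb4 symbol beside those of Ndufb4b and Ndufb4c, so they name no gene here, and both passed, the brighter with 11339, 8143 and 10907. In all, 10 probe sets carried a symbol of this kind beside another gene's, and 8 of them were above background.

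Complex II links the citric acid cycle to the chain and has 4 subunits, all encoded in the nucleus. Sdha, the flavoprotein, had signals of 22270, 31246 and 26601, and Sdhb, the iron-sulfur subunit, had 15641, 17515 and 15611. The membrane anchors Sdhc and Sdhd had 4945, 4260 and 4967, and 10527, 11668 and 8570.04. On the brightest probe sets pool 2 was highest for Sdha, Sdhb and Sdhd and lowest for Sdhc. A further Sdhd probe set above background had 1790, 728 and 1208, with pool 2 lowest. After quantile normalization pool 2 was highest for 2 of the 4 genes, so this order depends on the probe set and the scaling.

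Complex III passes electrons from ubiquinol to cytochrome c. Uqcrfs1, the Rieske iron-sulfur protein, had signals of 16082, 15388 and 15236, with a coefficient of variation of 2.90%. The large core protein genes Uqcrc1 (9886, 10945 and 13456) and Uqcrc2 (18897, 20362 and 16243) peaked in different pools. Uqcrb had 60888, 62301 and 46557 on 1 probe set and 6332, 2290 and 1710 on the other. Its probe sets thus ordered the pools differently, with pool 2 highest on the first and pool 1 on the other. The small subunit genes Uqcr10, Uqcr11, Uqcrh and Uqcrq had mean signals from 1329 to 4430 and passed, Uqcrq on 1 of its 4 probe sets.

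The remaining complex IV genes, which have no tissue paralog here, were above background in every pool. Cox5a had signals of 49831, 49407 and 40194, Cox5b 23936, 26672 and 21863, and Cox6c 20121, 18500.2 and 19759. Cox7c was lower on its probe sets, with 1211, 1820 and 1719 on the brighter, and still 2.90 log2 units over the background level.

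ATP synthase combines a catalytic head with a membrane sector that carries the ring of c subunits. Genes of the head and its central stalk were Atp5a1 (39871, 58925 and 38628), Atp5b (30311, 34277 and 31044), Atp5c1 (56496, 83776 and 57316), Atp5d (16857, 16070.4 and 21329) and Atp5e (6382, 4391 and 5725). On the brightest probe sets pool 2 was highest for the alpha, beta and gamma subunits (Atp5a1, Atp5b and Atp5c1). The dimmest probe sets of Atp5a1 and Atp5c1, also above background, were highest in pool 1 and pool 3. After quantile normalization pool 2 was highest for 1 of the 5 genes of the head and central stalk and pool 3 for 3. This order thus depends on the scaling. Subunit c is encoded by 3 genes, all of which passed. Atp5g3 had 46324, 61287 and 42748, Atp5g2 11547, 9840.04 and 9376, and Atp5g1 5228, 3548 and 4309. On these probe sets pool 2 was highest for Atp5g3 and pool 1 for the other 2 genes. A further Atp5g2 probe set above background was highest in pool 3.

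The pools differed more for several small membrane subunits of ATP synthase. Atp5l, subunit g, had signals of 4345, 1160.3 and 1418, a 3.74-fold range and the widest of the 81 genes above background. Atp5k, subunit e, had 9599, 5441 and 6126. Atp5md and Atp5mpl, also small subunits of the membrane sector, had 3838, 1930 and 2525, and 6034, 3042 and 3208. Pool 1 was highest for all 4 of these genes, by 1.76-fold or more over the lowest pool. Subunit f, Atp5j2, differed less, with 23770.5, 20171 and 20055.5.

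The assembly factors build complex I and are not part of the finished enzyme. Ndufaf4 had signals of 10970, 19650 and 18776, with pool 1 lowest, and Ndufaf8 had 4950, 2832 and 3770, with pool 1 highest. A further Ndufaf8 probe set above background had 378, 258 and 400, with pool 3 highest. Ndufaf1, Ndufaf5, Ndufaf6 and Ndufaf7 had mean signals from 1701 to 3150. Ndufaf2 (736 ± 134) and Ndufaf3 (567 ± 121, SD, n = 3 each) were nearest to background, and Ndufaf3 lost its call when background was set at the 99th percentile (adjusted p = 0.25 in limma).

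Of 38 measured partner genes, 36 passed, against 54.4% of all named genes. They were cytochrome c, the complex III subunit Cyc1 and further genes listed as assembly factors of the complexes, complex I included. Cycs, cytochrome c, averaged 28193 ± 2326 and Cyc1, the haem subunit of complex III, 25490.3 ± 1166 (SD, n = 3 each). The exceptions were Lyrm7, a complex III assembly factor (41.2, 2.83 and 93.0), and Tmem126b, a complex I assembly factor (220.3, 153 and 154). The mitochondrially encoded complex I gene ND5 was represented by 1 probe set, with 24114, 19258 and 32775.

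Between pools, the genes above background varied about as much as other genes, but their order of pools differed from that of the arrays as a whole. The coefficient of variation had a median of 14.2%, against 16.2% for all named genes above background, and the pools differed at least 2-fold in 4 of 81 genes (4.94%), against 6.87%. These 4 were Ndufa1, Ndufa3, Ndufab1 and Atp5l, each highest in pool 1 and lowest in pool 2 on its brightest probe set. Ndufa1, an X-linked accessory subunit, had signals of 25477, 12425 and 13835, and Ndufa3, a further accessory subunit, had 7069, 2545 and 3822. Pools are replicates of 1 group, so these differences were not tested.

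Pool 1 was the highest pool for 44 of the 81 genes (54.3%), pool 2 for 24 and pool 3 for 13. Among all named genes above background the shares were 29.5%, 27.5% and 43%. Pool 1 was lowest for 16 of the 81 genes, pool 2 for 39 and pool 3 for 26, against 40.7%, 34.5% and 24.8% of all named genes above background. In complex I, pool 1 was highest for 23 of 33 genes, and in ATP synthase for 11 of 17. It was highest for 5 of 11 complex IV genes, 3 of 8 complex III genes, 2 of 8 assembly factor genes and 0 of 4 complex II genes. Under quantile normalization these counts were 7 of 11, 5 of 8, 2 of 8 and 1 of 4 in the same order. Those of complex I and ATP synthase were then 23 of 33 and 12 of 17. The lower counts of complexes III and IV thus depend on the scaling. The median log2 deviation from the 3-pool mean was 0.13, -0.12 and -0.04 in pools 1, 2 and 3 for complex I and 0.16, -0.08 and -0.12 for ATP synthase, against -0.04, -0.02 and 0.06 for all named genes above background. For complex IV it was -0.01, 0.10 and -0.08, but 0.10, -0.09 and 0.02 after quantile normalization, so its direction depends on the scaling. After quantile normalization the medians were 0.23, -0.22 and -0.05 for ATP synthase, whose lowest pool was then pool 2 and not pool 3, and 0.16, -0.15 and 0.00 for complex I. Without pool 1, and measured from the mean of the other pools, ATP synthase had 0.0042 in pool 2 and -0.0042 in pool 3, and complex I had -0.0444 and 0.0444.

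Complex I and ATP synthase were also divided into core and other subunits, a division made after the values were seen and not tested. Pool 1 was highest for 20 of 27 other subunits of complex I and for 3 of 6 nuclear core subunits, and for 10 of 12 other subunits of ATP synthase and 1 of 5 subunits of its head and central stalk. After quantile normalization the counts were 20 of 27, 3 of 6, 11 of 12 and 1 of 5 in the same order. The medians of the complex I core had the same signs in pools 1 and 2 as those of its other subunits, with 0.05, -0.05 and 0.02 for the core in pools 1, 2 and 3 and 0.17, -0.12 and -0.06 for the others. After quantile normalization they were 0.10, -0.14 and 0.01 for the core and 0.18, -0.15 and -0.05 for the others. Of the 3 controls with 3′ and 5′ probe sets, beta-actin and pyruvate carboxylase (log2 ratios of 1.66, 2.09 and 2.65 in pools 1, 2 and 3) had their lowest 3′ to 5′ ratio in pool 1 and Gapdh in pool 3, and the part of RNA quality in these differences was not tested.

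**Figure D4:**
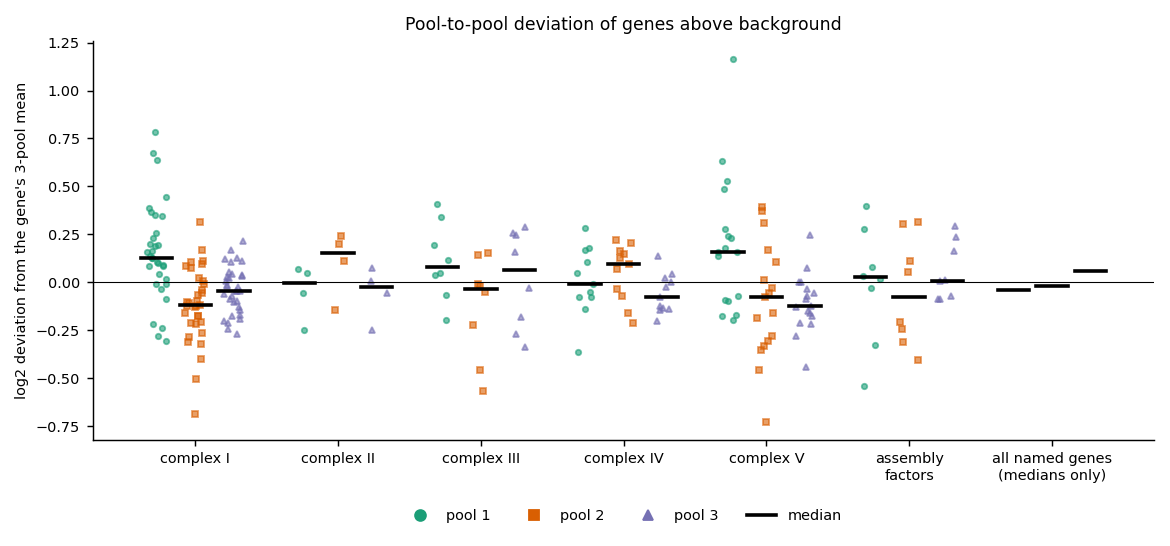
The vertical axis gives each gene's log2 deviation from its own 3-pool mean, by complex, with 1 symbol per gene and pool and a black bar at the median, and the last column shows the medians of all 9892 named genes above background. Pool 1 medians lie at 0.13 for complex I and 0.16 for ATP synthase, against -0.04 for all named genes.

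Several genes were measured by more than 1 probe set, and these did not always agree. Of 51 such genes, 35 were above background on all their probe sets, 15 on some and 1, Cox6a2, on none. The share with probe sets on both sides was 29.4%, against 46.3% of all named genes with several probe sets. Sdha had 22270, 31246 and 26601 on its brightest probe set and 3.33, 13.6 and 14.2 on its dimmest, and Uqcr10 had 1489, 941 and 1557 on its brightest and 6.01, 11.4 and 6.70 on its dimmest. In these genes 1 probe set gave a high signal in every pool and another gave none over background. Of 46 genes with at least 2 probe sets above background, 22 had the same highest pool on all of them, so the order of pools often differed between probe sets of a gene. The same share among all named genes was not computed. The counts of genes by highest pool given above use the brightest probe set only.

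**Figure D5:**
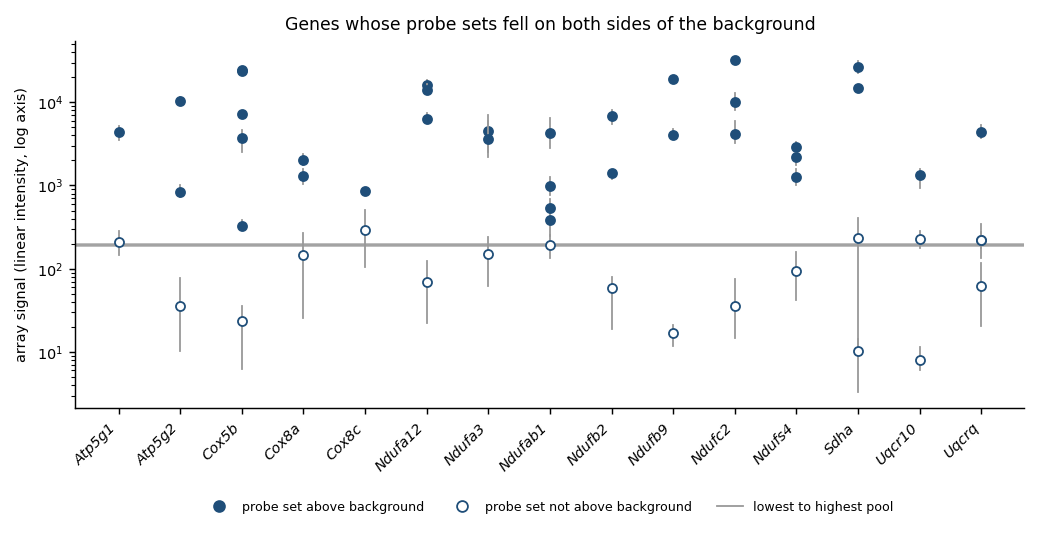
The vertical axis gives the mean array signal of each probe set on a log axis for the 15 genes with probe sets on both sides of the test, filled where the probe set was above background, with grey lines from the lowest to the highest pool and the grey band at the background level. All 15 genes have at least 1 probe set well over the band.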

How the data were processed

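Total RNA of 3 sorted pools was amplified in 2 rounds, labelled with biotin and read on 1 array each, per the labels' protocols. The deposited values are linear intensity signals per probe set, made by the authors with GCOS per the submitters' processing notes, with version and settings not given in the sources used here. After trimming 2% of probe sets at either end, each array had a mean signal of 1500.01, so differences in total signal are not kept. Probe sets with 1 gene symbol in the platform annotation named genes, and 64 controls were left out. Signals were tested against array background with limma 3.58.1 in R 4.3.3 (intercept-only model, eBayes with intensity trend), as described with the results, after a check on simulated data. On the log2(signal + 16) scale, differences between weak signals appear smaller than they are. Differences between pools were described without a test. Tables and plots used Python 3.11.15. Members, lists, isoform sets, alternatives and the rule for named genes (all members, plus from other lists those not above background and up to 3 with the largest moderated statistic) were chosen with earlier results of these data known. Of the genes outside this rule, Six2, Nrf1, Ppargc1b, Pprc1, Esrra and ND5 were chosen after their values were seen, as were the promoter motifs and windows. The NRF1 motif was first searched with its flanking bases and then by its core, and both counts are given.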

Additional observations from a re-analysis of the deposited data

How the results depend on the processing

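The 81 calls held when any pool was left out (81 without each of pools 1, 2 and 3) and under both other pseudocounts, quantile normalization, robust variances and a minimum mean signal of 50. Of the 90 genes, 3 changed their call under these and the other alternatives apart from the rule that all probe sets must pass: Ndufaf3 at the 99th percentile of background, and Ndufa12 and Uqcrq without probe sets of the _x_at and _s_at kinds (adjusted p of 0.25, 1 and 0.543 in limma). Without those probe sets 74 of the 85 genes that still had one passed. Where all probe sets had to pass, 15 genes lost their call, as the rule is stricter, and 5719 named genes passed. Genes with a 2-fold range between pools numbered 10 in place of 4 (all named genes 1660 in place of 680) when any probe set above background counted. They numbered 0 to 4 (all named genes 224 to 337) with 1 pool left out: 0 without pool 1, 1 without pool 2 and 4 without pool 3. Among the median deviations of complexes, quantile normalization moved complex III in pool 2 (-0.1218), complex IV in pools 1, 2 and 3 (0.1003, -0.0915 and 0.0232) and the assembly factors in pool 2 (-0.0111) by more than the SD of their own 3 medians. It also changed ATP synthase in pools 2 and 3 (-0.2202 and -0.0454, in place of -0.0761 and -0.1232) and complex II in pool 2 (0.0706, in place of 0.1536), by less than that SD, which is wider there. Counting all probe sets above background moved complex III in pool 3 (-0.0578) and complex IV in pools 1 and 2 (0.0855 and -0.0919), and leaving out _x_at and _s_at probe sets moved complex III in pool 3 (-0.0307) and the assembly factors in pool 2 (-0.2072). With 1 pool left out, complex III in pool 3 ranged from -0.074 to 0.0708 and the assembly factors in pool 2 from -0.0753 to -0.0178. The cause of these moves was not tested. The count of genes highest in pool 1, an alternative chosen after seeing the data, was 50 of 81 after quantile normalization. No paired analysis was possible because there is 1 group. Signals near background limit what can be said of Ndufb1, Cox6b2 and Cox4i2.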
